A study of Mus musculus with 28 samples.

Results

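The genes described here are those of the tricarboxylic acid (TCA) cycle and of the entry of pyruvate into it, with the enzymes that use citrate and malate outside the cycle. They were chosen by a fixed list of 36 symbols matched to the array's gene annotation. Of these, 35 were measured among 18193 named genes. Mpc2 had no probe set under its symbol. A probe set is the group of short probes that reads 1 transcript. The members were 1 pyruvate carrier subunit, 5 subunits of the pyruvate dehydrogenase complex, 4 kinases and 2 phosphatases of that complex, pyruvate carboxylase, 15 cycle enzymes or subunits, and 7 enzymes that act beside the cycle on citrate, isocitrate or malate. For 25 members the array had more than 1 probe set, and the probe set with the largest standard deviation (SD) over the 28 arrays stood for the gene.

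The arrays came from NIH3T3 cells, immortalised fibroblasts of mouse embryos, and from a second line labelled NIH3T3 K-ras, called K-ras here, for which the labels give no allele. All cultures grew in the same medium with newborn calf serum and glutamine. Cells were taken at a change of medium, at 25 mM glucose (0 h), and at 24, 48 and 72 h in medium with 25 or 1 mM glucose. Each of the 14 groups of line, glucose and time had 2 arrays, which the labels call biological replicates. The stated aim was to find genes modulated by the amount of glucose in the cells of each line. One K-ras line was compared with 1 NIH3T3 line, and whether K-ras is 1 clone is not given in the sources used here.

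Pyruvate made from glucose enters mitochondria through the pyruvate carrier. The pyruvate dehydrogenase complex then converts it to acetyl-CoA, which citrate synthase joins to oxaloacetate. Pyruvate dehydrogenase kinases phosphorylate the complex and switch it off, and the phosphatases reverse this. The kinase genes respond to hypoxia, fasting and hormones in many tissues. Cells with active RAS are known for high glucose use and for feeding the cycle with glutamine. In the cytosol, exported citrate is split to acetyl-CoA for lipid synthesis, while malic enzyme and isocitrate dehydrogenase form NADPH.

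Each deposited value is a log2 ratio to the gene's own median over the 28 arrays. Differences between arrays can be read, and levels cannot be compared between genes. Groups were compared with limma, with p-values adjusted over all 18193 genes, and a gene is said to be called where the adjusted p was under 0.05. On the 500 genes with the largest SD, 6 arrays resembled the line that they are not labelled as, and are called out of place here. These were both arrays of NIH3T3 at 1 mM and 24 h, and replicate 1 of NIH3T3 at 1 mM and 48 h, of K-ras at 25 mM and 0 h, and of K-ras at 1 mM at 48 h and at 72 h. Labels were kept, and results that rest on these arrays are given also without them. The hybridisation control bioC, an RNA added to each sample, lay between -2.34 and -0.84 on the 8 NIH3T3 arrays at 25 mM and between -0.26 and 2.98 on the 8 K-ras arrays at 25 mM. Line and the bioC difference cannot be told apart at 25 mM. The highest bioC value belonged to replicate 1 of K-ras at 25 mM and 72 h, which also had the widest spread of values.

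Among the members, Pdk1 varied most over the arrays. It had an SD of 1.49 over the 28 arrays, at percentile 99.0 of all genes. Pdp1 lay at percentile 95.1, Idh1 at 94.1, Pdk4 at 93.4, Pdk2 at 91.1 and Sucla2 at 91.0. The other kinase, Pdk3, and the other phosphatase, Pdp2, lay lower, at percentiles 68.3 and 68.9. The median SD was 0.84 for the 4 kinases, 0.38 for the 5 complex subunits and 0.35 for the 15 cycle enzymes, beside 0.32 over all genes. Sdhb, the iron-sulfur subunit of succinate dehydrogenase, varied least, with an SD at percentile 6.0. These SDs describe the whole set of arrays and also served to choose the probe sets.

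**Figure D1:**
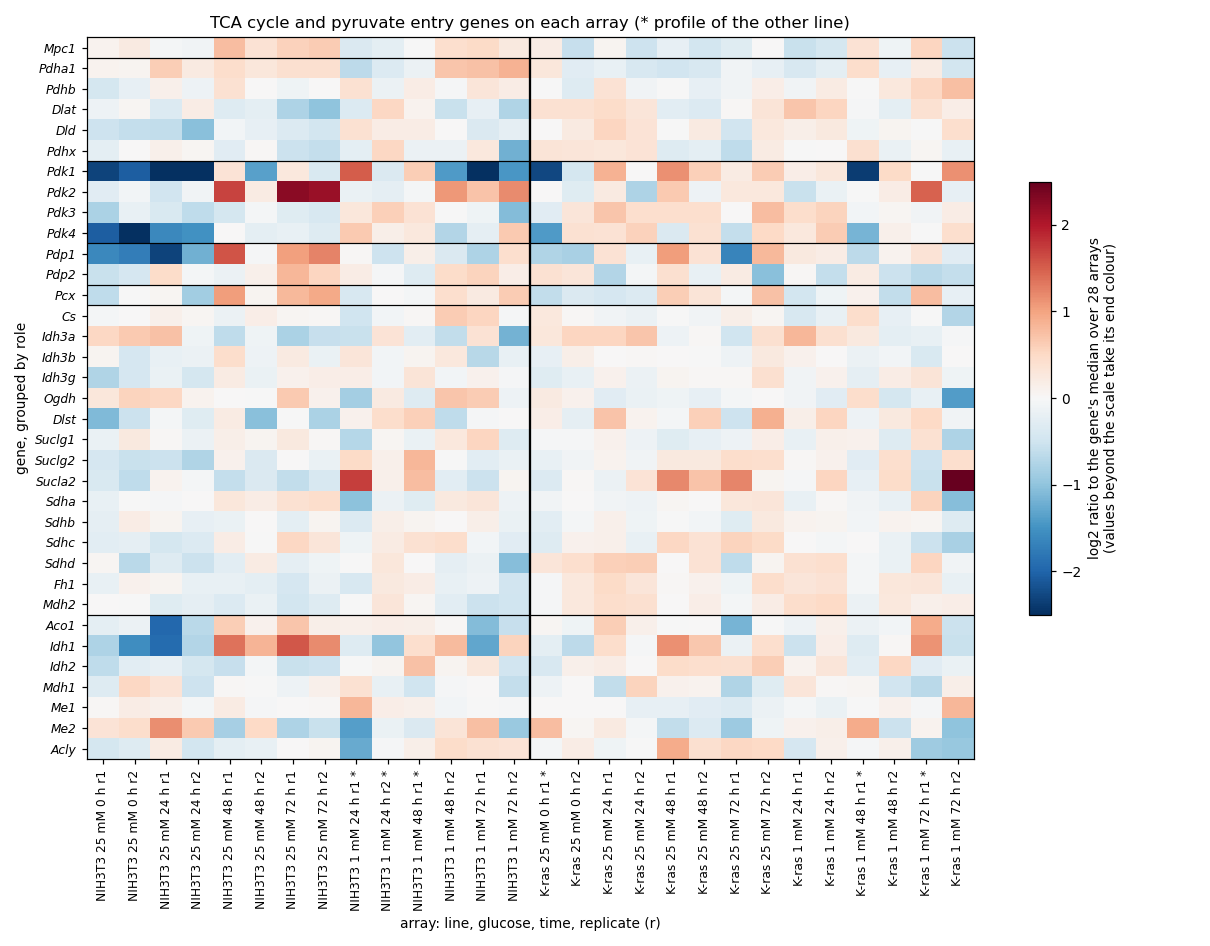
Log2 ratio to the gene's median (colour) for the 35 measured genes, in rows grouped by role, on the 28 arrays, in columns by line, glucose, time and replicate; a star marks the 6 arrays with the profile of the other line. Pdk1, Pdk4 and Pdp1 are low on the NIH3T3 arrays at 25 mM and 0 or 24 h, and most cycle enzymes stay near 0.

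The sequences before the starts of the 4 kinase genes are shown because these genes carry much of what follows. They are the 250 bases before a RefSeq transcript start in assembly GRCm38.p6, written 5′ to 3′ on the gene's strand. The windows are chr2:71872974-71873223 (plus strand) for Pdk1, chr11:95041372-95041621 (minus strand) for Pdk2, chrX:93832151-93832400 (minus strand) for Pdk3 and chr6:5496279-5496528 (minus strand) for Pdk4. Capitals mark matches on either strand to CACGTG, an E-box bound by MYC and related factors, or to ACGTG or GCGTG, which hold the core of hypoxia response elements.
Pdk1: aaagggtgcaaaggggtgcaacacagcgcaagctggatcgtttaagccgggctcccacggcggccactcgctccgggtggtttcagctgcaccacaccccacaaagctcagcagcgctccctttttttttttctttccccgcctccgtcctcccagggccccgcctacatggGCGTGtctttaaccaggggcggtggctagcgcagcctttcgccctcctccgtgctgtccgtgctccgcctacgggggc
Pdk2: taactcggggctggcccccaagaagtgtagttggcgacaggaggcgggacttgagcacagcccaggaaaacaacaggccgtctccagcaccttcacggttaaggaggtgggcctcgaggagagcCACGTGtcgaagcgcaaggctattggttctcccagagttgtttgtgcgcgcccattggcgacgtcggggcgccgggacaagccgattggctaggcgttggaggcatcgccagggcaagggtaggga
Pdk3: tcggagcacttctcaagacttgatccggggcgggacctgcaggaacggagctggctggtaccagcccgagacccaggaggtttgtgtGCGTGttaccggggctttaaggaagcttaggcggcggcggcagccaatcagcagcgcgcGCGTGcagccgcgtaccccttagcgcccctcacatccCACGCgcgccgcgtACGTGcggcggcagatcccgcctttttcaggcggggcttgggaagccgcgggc
Pdk4: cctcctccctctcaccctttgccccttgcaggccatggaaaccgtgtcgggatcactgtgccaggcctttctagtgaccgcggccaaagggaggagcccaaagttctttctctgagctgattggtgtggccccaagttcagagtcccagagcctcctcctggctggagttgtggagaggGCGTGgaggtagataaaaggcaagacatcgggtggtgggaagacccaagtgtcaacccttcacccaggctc
Pdk2 held CACGTG, which also counts as ACGTG. Pdk1 and Pdk4 held GCGTG, and Pdk3 held ACGTG and GCGTG. A second start of Pdk1 and a second start of Pdk2 had none of the motifs searched in their windows.

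These short motifs are common. Over all 32851 windows of the same length, CACGTG lay in 6.02%, ACGTG in 16.6% and GCGTG in 28.2%. Of the 35 measured members, 31 matched the promoter table, with 42 windows. CACGTG lay in 6 of the 42 windows, belonging to Ogdh, Pcx, Pdk2 and Pdp2. ACGTG lay in 16 windows of 11 members, and GCGTG in 20 windows of 17 members. AAGGTCA, a site of estrogen-related receptors, lay in 0 of the 42 windows and in 4.08% of all. GCATGCG, the core of NRF1 sites, lay in 4 windows of 3 members, Ogdh, Pdhb and Sdhb, and in 3.02% of all. TGACTCA, an AP-1 site, lay in 0 of the 42 and in 4.46% of all. Both strands were searched, and matches on opposite strands can share bases.

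At 25 mM glucose, averaged over the 4 times, 10 of the 35 members were called between the lines. Higher in K-ras were 3 of the 4 pyruvate dehydrogenase kinases (Pdk1, Pdk3 and Pdk4), the complex subunits Dlat and Dld, the cycle enzymes Suclg2 and Mdh2, and Idh2. Lower in K-ras were the pyruvate carrier subunit Mpc1 and the catalytic subunit gene Pdha1. Of all genes, 11.3% were called in this average, equally often in each direction. The median log2 fold change of the 35 members was 0.20, beside -0.04 over all genes. K-ras was above NIH3T3 in 23 of the 35 members. The pooled arrays of the lines overlapped in each of the 35.

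Pdk1, the kinase gene known for its response to hypoxia, was between -3.72 and 0.34 on the 8 NIH3T3 arrays at 25 mM, with a median of -1.71. On the 8 K-ras arrays it was between -2.28 and 1.13, with a median of 0.40. K-ras was higher at 4 of 4 times, and the lowest K-ras array was the one at 0 h with the profile of NIH3T3. The average log2 fold change was 1.70 ± 0.45 (SE, limma adjusted p = 0.0227). The 3 other probe sets of Pdk1 gave 0.87 to 2.11. Without any 1 array in turn the value lay between 1.47 and 1.93, and the call was kept in 11 of 16 such fits.

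Pdk4, a kinase gene induced by fasting in many tissues, was between -2.49 and 0.01 in NIH3T3 (median -0.91) and between -1.42 and 0.57 in K-ras (median 0.37). Its log2 fold change was 1.03 ± 0.27 (adjusted p = 0.0209), with K-ras higher at 4 of 4 times. Pdk3 ran from -0.80 to -0.06 in NIH3T3 (median -0.39) and from -0.28 to 0.77 in K-ras (median 0.42), so only the K-ras array out of place reached into the NIH3T3 range. It differed by 0.74 ± 0.16 (adjusted p = 0.0071) and was called in each of the 16 fits without 1 array. Pdk2, the most widely expressed of the kinases, ran the other way in size, at -0.65 ± 0.26 (adjusted p = 0.122), and was not called. Its K-ras mean was above that of NIH3T3 at 2 of the 4 times and below at the other 2.

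**Figure D2:**
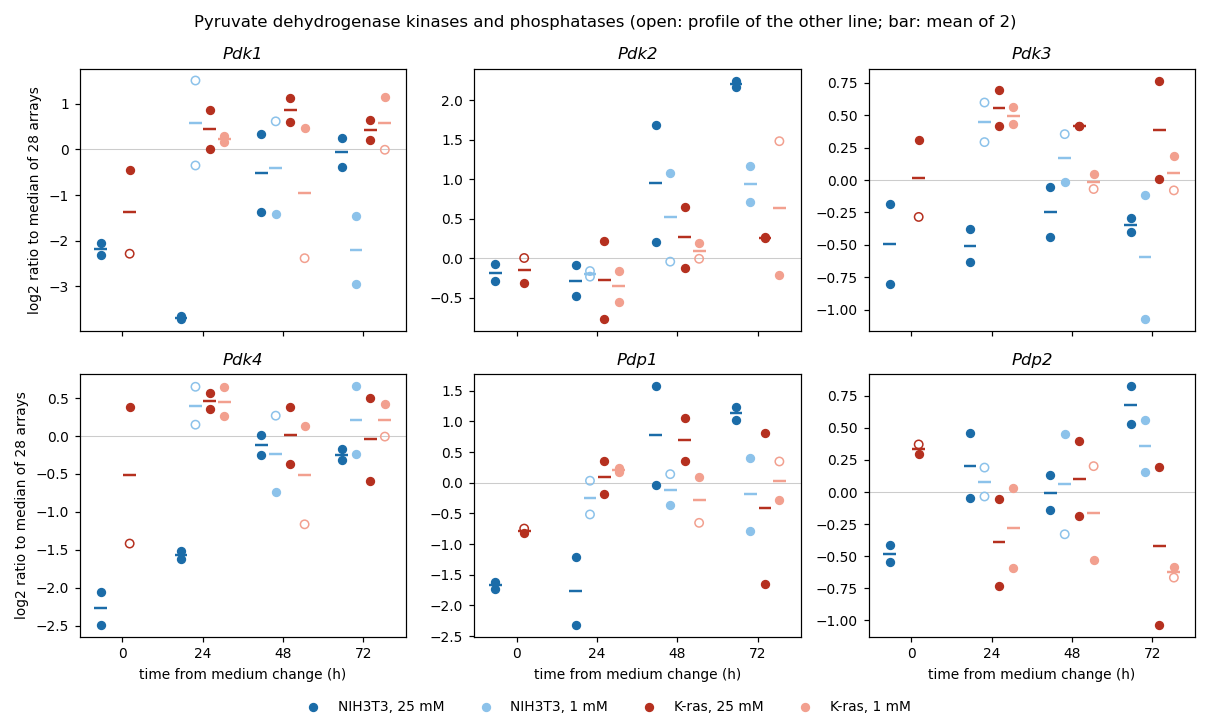
Log2 ratio to the median of 28 arrays for the 4 pyruvate dehydrogenase kinases and 2 phosphatases against time from the medium change, by line and glucose; points are arrays, bars the mean of 2, and open points the arrays with the profile of the other line. Pdk1 was lowest on the NIH3T3 arrays at 25 mM and 24 h (-3.64 and -3.72), and Pdk2 was highest on those at 72 h (2.25 and 2.17).

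The carrier gene Mpc1 and the subunit gene Pdha1 differed in the other direction. Mpc1 was between -0.09 and 0.78 in NIH3T3 (median 0.30) and between -0.58 and 0.19 in K-ras (median -0.25). K-ras was lower at 4 of 4 times, by -0.54 ± 0.16 (adjusted p = 0.0346). Pdha1, the subunit that the kinases phosphorylate, was between 0.08 and 0.61 in NIH3T3 (median 0.34) and between -0.48 and 0.28 in K-ras (median -0.24). It differed by -0.53 ± 0.14 (adjusted p = 0.0225), and its other probe set gave -0.47. The only K-ras array of Pdha1 inside the NIH3T3 range was the one out of place.

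Within the same complex, Dld and Dlat were higher in K-ras. Dld, the dihydrolipoamide dehydrogenase that the oxoglutarate complex also uses, ran from -1.05 to -0.08 in NIH3T3 (median -0.49) and from -0.48 to 0.53 in K-ras (median 0.22). The difference was 0.62 ± 0.11 (adjusted p = 0.00491). The other probe set of Dld gave 0.03, so the 2 probe sets disagree. Dlat, the acetyltransferase, ran from a median of -0.28 on the NIH3T3 arrays to one of 0.32 on the K-ras arrays, a difference of 0.48 ± 0.14 (adjusted p = 0.0298), with 0.20 and 0.24 at its other probe sets. Pdhb (0.02 ± 0.11) and Pdhx (0.21 ± 0.18) were not called. The 5 subunits of 1 complex thus gave differences of both signs.

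Among the 15 cycle enzymes, 2 were called and 11 were above 0. Mdh2, mitochondrial malate dehydrogenase, ran from -0.45 to 0.00 in NIH3T3 (median -0.26) and from -0.04 to 0.43 in K-ras (median 0.17). It differed by 0.40 ± 0.09 (adjusted p = 0.0086), with 0.37 at its other probe set. Suclg2, the GTP-forming subunit of succinyl-CoA ligase, ran from -0.75 to 0.11 and from -0.19 to 0.45, a difference of 0.47 ± 0.15 that passed narrowly (adjusted p = 0.0498). Sucla2, its ATP-forming counterpart, had the larger value of 0.76 ± 0.37 and was not called (limma adjusted p = 0.222). Over the alternative fits the value of Sucla2 ran from 0.19 to 0.90, so its size depends on the processing. Citrate synthase, Cs, was at -0.01 ± 0.14.

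Idh2, the mitochondrial NADP-linked isocitrate dehydrogenase, ran from -0.64 to -0.05 in NIH3T3 (median -0.48) and from -0.40 to 0.61 in K-ras (median 0.29). K-ras was higher at 4 of 4 times, by 0.63 ± 0.15 (adjusted p = 0.0123), while the other probe set of Idh2 gave -0.02. Acly, ATP citrate lyase, was at 0.46 ± 0.15 (adjusted p = 0.0612). The fumarase gene Fh1 (0.34 ± 0.12), Dlst of the oxoglutarate complex (0.66 ± 0.25) and Sdhd (0.45 ± 0.15) also missed the threshold. The cytosolic enzymes Aco1, Idh1, Mdh1 and Me1 and the mitochondrial malic enzyme Me2 were not called.

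**Figure D3:**
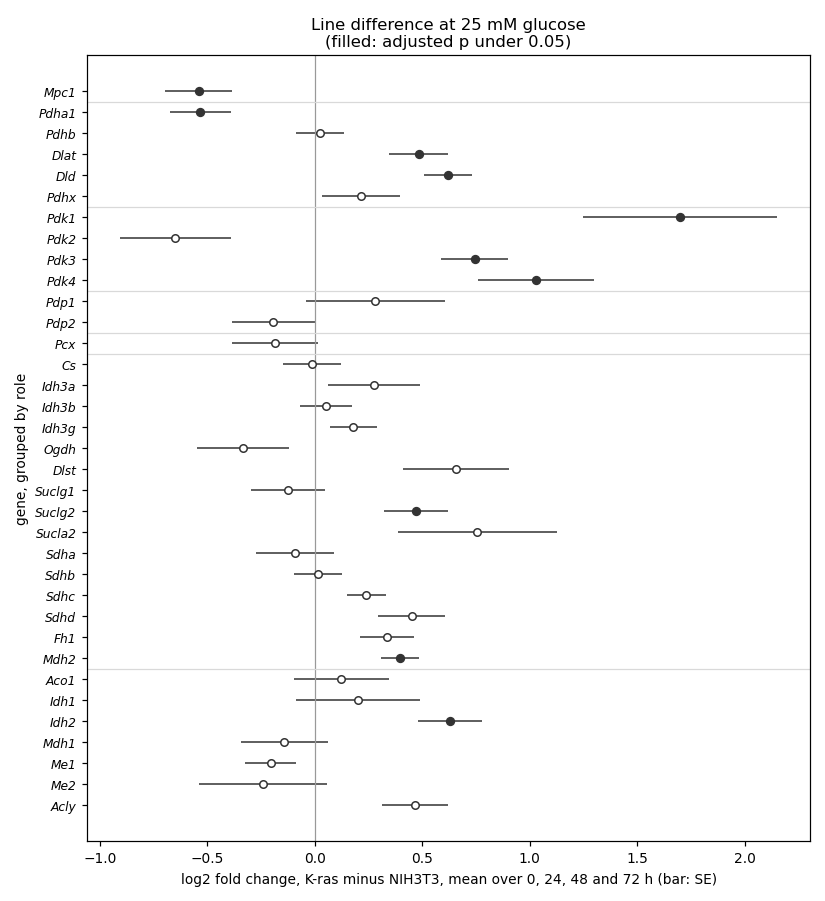
Average log2 fold change between lines at 25 mM (K-ras minus NIH3T3, over 0, 24, 48 and 72 h) for the 35 genes grouped by role; bars are SEs and filled points have an adjusted p under 0.05. Pdk1 (1.70) lies farthest to the right, and Pdk2 (-0.65), Mpc1 (-0.54) and Pdha1 (-0.53) farthest to the left.

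The number of all genes called depended on single arrays, and so did the number of members called. Without any 1 of the 16 arrays the count ran from 4 to 10. It was lowest without replicate 2 of K-ras at 0 h, the array of that group that keeps its line's profile. It was 6 without replicate 2 of NIH3T3 at 72 h, replicate 2 of K-ras at 24 h or either replicate of K-ras at 48 h. Dld, Pdk3, Mdh2 and Idh2 were called in all 16 of these fits. Pdha1 and Pdk4 were called in 13 of them, Pdk1 in 11, Dlat in 7, Mpc1 in 4 and Suclg2 in 1. Without the 6 arrays out of place 14 members were called, beside 17.9% of all genes. These were the same 10 with Sucla2, Acly, Fh1 and Sdhc, all higher in K-ras, and Pdk1 then differed by 1.93 ± 0.28 and Pdk4 by 1.25 ± 0.20.

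At single times the lines differed less often. At 0 h no member was called, beside 0.011% of all genes, and 4 of 35 members had an unadjusted p under 0.05, beside 851 of all genes. At 24 h 1 member was called, beside 0.066% of all genes. This was Dld, at -0.61 and -1.05 in NIH3T3 and 0.53 and 0.34 in K-ras, a difference of 1.27 ± 0.22 (limma adjusted p = 0.0456). Its other probe set gave -0.40, and the call was kept in 1 of 4 fits without 1 array. At 48 h no member was called, beside 0.0165% of all genes, with 5 members and 1867 genes at an unadjusted p under 0.05. At 72 h no member was called, beside 0.726% of all genes, with 10 members and 3929 genes at that level.

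The largest single-time difference was that of Pdk1 at 24 h. Both NIH3T3 arrays were very low, at -3.64 and -3.72, and both K-ras arrays were near the median, at 0.87 and 0.01. The difference of 4.12 ± 0.90 had an adjusted p of 0.0789. Its size depends on the probe set: the 3 other probe sets of Pdk1 gave 0.05 to 2.91, and the mean of all its probe sets gave 2.28. At 72 h the order of Pdk2 was the reverse, at 2.25 and 2.17 in NIH3T3 against 0.25 and 0.27 in K-ras, a difference of -1.94 ± 0.52 (adjusted p = 0.0722). Without replicate 2 of K-ras at 72 h, Aco1 and Pdp1 were called lower in K-ras at that time. Many more of all genes were called in that fit than with all arrays. Only replicate 1, the array with the highest bioC value, then stands for K-ras at 72 h. The highest values were those of Pdk4 at 0 h (1.75 ± 0.54) and of Sucla2 at 48 h (1.45 ± 0.74) and 72 h (1.15 ± 0.74). The lowest were those of Mpc1 at 0 h (-0.36 ± 0.31) and 48 h (-0.90 ± 0.31) and of Me2 at 24 h (-0.82 ± 0.59), and none of these was called. Over the alternative fits Sucla2 ran from 0.34 to 1.70 at 48 h and from 0.28 to 1.72 at 72 h.

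More members passed the threshold when the 6 arrays were left out. At 0 h, Pdk4 was called (2.66 ± 0.46, 1 K-ras array), beside 2.25% of all genes. At 24 h 6 members were called, Pdk1, Pdk4, Dld, Aco1 and Mdh2 higher and Pdha1 lower, beside 6.29% of all genes. At 48 h 3 were called, Sucla2 higher and Mpc1 and Pdha1 lower, beside 5.49%. At 72 h 3 were called, Dlat and Idh2 higher and Pdk2 lower, beside 8.89%. None of the 6 arrays enters the differences at 24, 48 or 72 h, whose values stayed the same.

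In NIH3T3 at 25 mM, genes on both sides of pyruvate dehydrogenase control rose between 0 or 24 h and 72 h. From 0 to 72 h 5 of 35 members rose and none fell: Pdp1, Idh1, Pdk2, Pdk4 and Sdhc. The share of all genes called was 5.52%, and the median log2 fold change was 0.21 for the members and -0.07 over all genes. From 24 to 72 h 6 members rose and none fell: Pdk1, Pdp1, Idh1, Pdk2, Aco1 and Sdhc. The share of all genes was 6.15%, with medians of 0.16 and -0.10. The 2 comparisons share the arrays at 72 h, and 4 members were called in both.

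Pdk1 was at -2.31 and -2.06 at 0 h, at -3.64 and -3.72 at 24 h, at 0.34 and -1.36 at 48 h and at 0.26 and -0.38 at 72 h. The arrays at 24 h lay below those of the 3 other times, and those at 48 and 72 h overlapped. From 24 to 72 h Pdk1 rose by 3.62 ± 0.90 (adjusted p = 0.0273). The 3 other probe sets of Pdk1 gave 0.34 to 1.74, so the size depends on the probe set. From 0 to 72 h its 2.12 ± 0.90 was not called (adjusted p = 0.191).

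Pdk2 was at -0.29 and -0.07 at 0 h, -0.47 and -0.09 at 24 h, 1.69 and 0.21 at 48 h and 2.25 and 2.17 at 72 h. Both arrays at 72 h were above all earlier ones, and the replicates at 48 h lay far apart. It rose by 2.39 ± 0.52 from 0 h (adjusted p = 0.0143) and by 2.49 ± 0.52 from 24 h (adjusted p = 0.0135). Pdk4 was at -2.05 and -2.49 at 0 h, -1.62 and -1.51 at 24 h, 0.01 and -0.25 at 48 h and -0.18 and -0.32 at 72 h. The early arrays of Pdk4 were all below the late ones, and it rose by 2.02 ± 0.54 from 0 h (adjusted p = 0.0373). From 24 h its 1.32 ± 0.54 was not called (adjusted p = 0.154). Pdk3 stayed between -0.80 and -0.06 on all 8 arrays.

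Pdp1, a phosphatase that reactivates the complex, was at -1.61 and -1.73 at 0 h, -2.32 and -1.20 at 24 h, 1.58 and -0.03 at 48 h and 1.03 and 1.24 at 72 h. It rose together with the kinases, by 2.81 ± 0.65 from 0 h (adjusted p = 0.0195) and by 2.89 ± 0.65 from 24 h (adjusted p = 0.0177). Its other probe set gave 2.38 and 2.26. Pdp2, the second phosphatase, was at 1.16 from 0 h and 0.47 from 24 h and was not called. Pcx, pyruvate carboxylase, which makes oxaloacetate directly from pyruvate, was at 1.20 and 1.29 and was not called.

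Idh1, the cytosolic NADP-linked isocitrate dehydrogenase, was at -0.77 and -1.55 at 0 h, -1.92 and -0.73 at 24 h, 1.37 and 0.84 at 48 h and 1.55 and 1.18 at 72 h. All late arrays of Idh1 were above all early ones. It rose by 2.52 ± 0.58 from 0 h (adjusted p = 0.0189) and by 2.69 ± 0.58 from 24 h (adjusted p = 0.0153), with 2.28 and 1.95 at its other probe set. Aco1, a cytosolic aconitase that also acts as an iron-regulatory protein, was at -1.96 and -0.68 at 24 h and 0.68 and 0.15 at 72 h. Its rise of 1.74 ± 0.44 (adjusted p = 0.0295) was met by 0.40 and -0.26 at its other probe sets, 1 of them of opposite sign. The names of the chosen probe sets mark those of Idh1 and Sdha (s_at) and of Aco1 and Sdhd (x_at) as able to read related transcripts.

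Among the cycle enzymes only Sdhc, a membrane anchor subunit of succinate dehydrogenase, was called. It was at -0.26 and -0.23 at 0 h, -0.44 and -0.33 at 24 h, 0.18 and -0.02 at 48 h and 0.52 and 0.30 at 72 h, with no overlap between early and late arrays. It rose by 0.65 ± 0.18 from 0 h (adjusted p = 0.0425) and by 0.80 ± 0.18 from 24 h (adjusted p = 0.019), with 0.25 and 0.36 at its other probe set. The 15 cycle enzymes had a median of 0.10 from 0 h and 0.07 from 24 h. The lowest values, not called, were those of Idh3a from 0 h (-1.26 ± 0.43) and Me2 from 24 h (-1.58 ± 0.59). The median of the 4 kinases was 2.07 from 0 h and 1.90 from 24 h.

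These calls rested on all arrays compared. Fewer of all genes were called too in each fit without 1 of these arrays, so the loss was not particular to the members. Without any 1 of the 4 arrays, namely either replicate at 0 h or at 72 h, none of the 5 members was called from 0 to 72 h. From 24 to 72 h none was called without replicate 1 at 24 h or either replicate at 72 h, and 2 were called (Aco1 and Idh1) without replicate 2 at 24 h. The log2 fold changes kept their sign in each of these fits, with Pdk2 at 2.28 or more from 0 h and Pdk1 between 3.30 and 3.94 from 24 h. Without the 6 arrays out of place, which enter neither comparison, 8 members were called from 0 h, beside 10.7% of all genes, and 9 from 24 h, beside 10.5%. Dlat was then called lower in both, at -0.84 ± 0.23 and -0.80 ± 0.23.

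In K-ras at 25 mM no member was called over time. From 0 to 72 h the share of all genes called was 0%, and 3 members and 2791 genes had an unadjusted p under 0.05. From 24 to 72 h the share was also 0%, with 4 members and 1849 genes at that level. Pdk1 was at -2.28 and -0.45 at 0 h, 0.87 and 0.01 at 24 h, 1.13 and 0.59 at 48 h and 0.21 and 0.64 at 72 h. The 0 h arrays were the lowest, and the lower of them had the profile of NIH3T3. From 0 to 72 h Pdk1 had the largest value, 1.79 ± 0.90, and Me2 the lowest, -0.91 ± 0.59. From 24 to 72 h these were Pcx (0.72 ± 0.40) and Aco1 (-0.96 ± 0.44).

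The other kinases showed no called change in K-ras. Pdk2 was at 0.00 and -0.31 at 0 h, 0.22 and -0.77 at 24 h, 0.65 and -0.12 at 48 h and 0.25 and 0.27 at 72 h. Pdk3 was at -0.28 and 0.31, 0.70 and 0.41, 0.42 and 0.42, and 0.01 and 0.77 at those times. Pdk4 was at -1.42 and 0.39, 0.35 and 0.57, -0.37 and 0.39, and -0.59 and 0.51. The lowest Pdk3 and Pdk4 values both came from the array out of place at 0 h. Pdp1 was at -1.65 and 0.81 at 72 h, and the -1.65 was its lowest value in K-ras. Without replicate 2 at 72 h, Dld and Sdhd were called lower at 72 than at 24 h. Many of all genes were called in that fit as well, which rests on replicate 1 alone at 72 h.

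Whether the change from 24 to 72 h differed between lines was tested directly. None of the 35 members was called, beside 0.0055% of all genes, and 8 members and 2664 genes had an unadjusted p under 0.05. The differences of K-ras minus NIH3T3 were -3.63 ± 1.28 for Pdk1 (adjusted p = 0.257), -3.40 ± 0.91 for Pdp1 (0.209), -2.76 ± 0.81 for Idh1 (0.215) and -2.70 ± 0.63 for Aco1 (0.183). Sucla2 had the highest value, 1.07 ± 1.05. A different rise in the 2 lines was thus not shown for any member. Aco1, Dld, Idh1, Pdp1 and Sdhd were called lower in K-ras without replicate 2 of K-ras at 72 h. Many more of all genes were called in that fit than with all arrays, so the calls do not single out these members. That fit rests on replicate 1 alone at 72 h, the array with the highest bioC value.

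**Figure D4:**
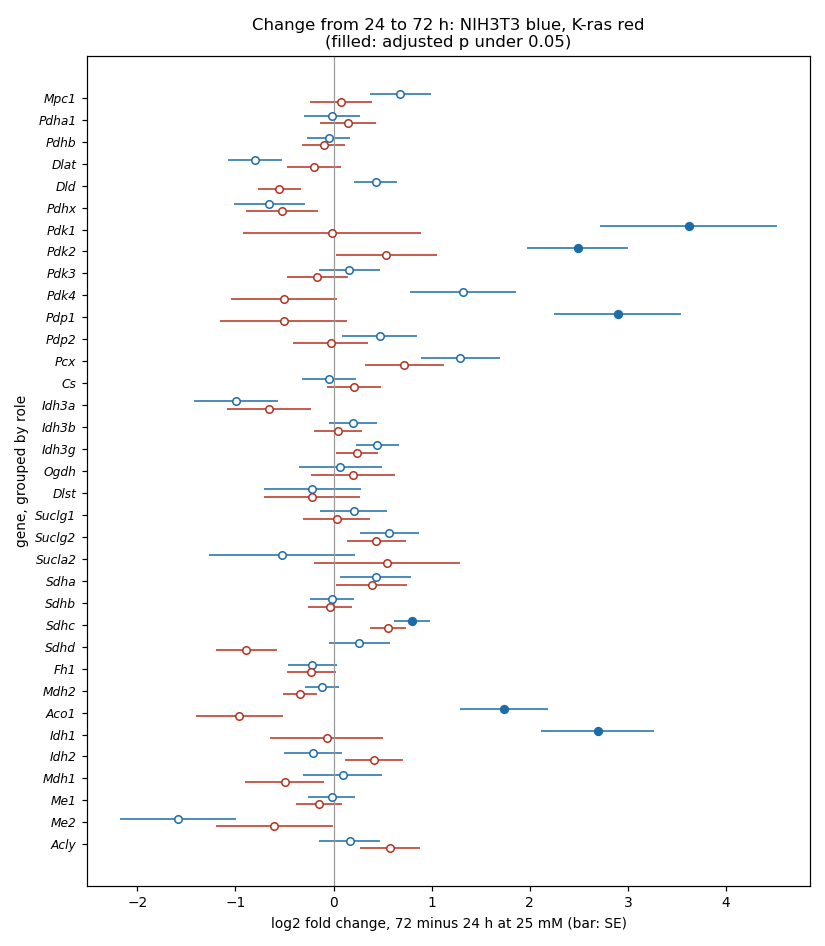
Log2 fold change from 24 to 72 h at 25 mM for the 35 genes grouped by role, in NIH3T3 (blue) and K-ras (red); bars are SEs and filled points have an adjusted p under 0.05. In NIH3T3, Pdk1 (3.62), Pdp1 (2.89), Idh1 (2.69), Pdk2 (2.49), Aco1 (1.74) and Sdhc (0.80) are filled, and no K-ras point is.

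Lower glucose changed few members. In NIH3T3 none of the 35 was called at 24, 48 or 72 h. The share of all genes called was 0.0055% at 24 h, 0% at 48 h and 0.011% at 72 h. At an unadjusted p under 0.05 there were 11 members and 2933 genes at 24 h, 1 member and 248 genes at 48 h, and 5 members and 1224 genes at 72 h. At 24 h both arrays at 1 mM had the profile of K-ras, and the effects of glucose and of line cannot be told apart there. Pdk1 was then at 1.51 and -0.35 at 1 mM against -3.64 and -3.72 at 25 mM, a difference of 4.26 ± 0.90 (adjusted p = 0.10), and Me2 had the lowest value, -1.68 ± 0.59. At 48 h the extremes were Sucla2 (0.74 ± 0.74) and Pdp1 (-0.89 ± 0.65).

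At 72 h all 4 NIH3T3 arrays were in place. The members that rose over time were high on the 25 mM arrays used again here, so that choice favours lower values at 1 mM, and the values are given as a description. Pdk1 was at -2.94 and -1.45 at 1 mM against 0.26 and -0.38 at 25 mM, a difference of -2.14 ± 0.90 (adjusted p = 0.678). Idh1 was at -1.29 and 0.57 against 1.55 and 1.18, a difference of -1.73 ± 0.58 (adjusted p = 0.543). Pdk2 was at 0.72 and 1.17 against 2.25 and 2.17, a difference of -1.26 ± 0.52 (adjusted p = 0.678). The fourth gene, Sdhc, was at -0.07 and -0.28 against 0.52 and 0.30, a difference of -0.59 ± 0.18 (adjusted p = 0.50). Pdp1 (-1.32 ± 0.65) and Aco1 (-1.24 ± 0.44) also had values below 0, and Pdk4 had one above (0.46 ± 0.54). In Pdk1, Idh1, Pdk2, Sdhc, Pdp1 and Aco1 both arrays at 1 mM were below both at 25 mM, and none was called. Other members were separated as well, some lower at 1 mM, such as Mpc1 and Pcx, and some higher, such as Pdha1 and Dlat. The share of all genes separated in this way is not given here. Pdk3 was at -0.11 and -1.08 against -0.30 and -0.40, and Pdk4 at -0.23 and 0.66 against -0.18 and -0.32, with overlap in both. Me2 had the highest value, 0.58 ± 0.59. The 1 mM arrays differed in bioC, at 0.28 and -1.10, while both 25 mM arrays were low, and its part in these values was not tested.

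In K-ras 1 member was called at 72 h. Sdhc was at -0.53 and -0.82 at 1 mM and at 0.57 and 0.47 at 25 mM, with no overlap. It fell by 1.20 on the log2 scale (SE 0.18, limma adjusted p = 0.033), with -0.59 at its other probe set. The share of all genes called was 0.181%. Acly, the citrate lyase, was at -0.88 and -0.95 against 0.52 and 0.50, a difference of -1.43 ± 0.31 that missed the threshold (adjusted p = 0.0569). Aco1 had the highest value, 0.78 ± 0.44. The array of K-ras at 1 mM and 72 h that had the profile of NIH3T3 was the -0.53 of Sdhc and the -0.88 of Acly, and both genes lay below 25 mM on either replicate.

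The call of Sdhc was lost without replicate 1 of K-ras at 25 mM and 72 h (adjusted p = 0.25), the array with the highest bioC value, and was kept without each of the 3 other arrays. Its value lay between -1.34 and -1.06 in these fits. Acly and Sdhc were called lower without replicate 2 at 25 mM. Sdha and Sdhc were called lower and Me1 higher without replicate 1 at 1 mM. More of all genes were called in both fits than with all arrays, and by far the most without replicate 2 at 25 mM. Without the 6 arrays out of place 6 members were called, beside 3.74% of all genes, with a single array at 1 mM. Acly (-1.46), Ogdh (-1.37), Sdha (-1.36) and Sdhc (-1.34) were lower, and Sucla2 (2.16) and Me1 (1.08) higher. The lone array is assumed there to vary like the other groups. For Sucla2 it read 2.80, its highest value on any array.

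At 24 h in K-ras, where all 4 arrays were in place, glucose made the smallest differences. No member was called, with a share of 0% of all genes, and 0 members and 117 genes had an unadjusted p under 0.05. The values ran from -0.38 (Idh1) to 0.23 (Dlat). Pdk1 was at 0.16 and 0.29 at 1 mM against 0.87 and 0.01 at 25 mM, a difference of -0.22, and Pdk2, Pdk3 and Pdk4 differed by -0.08, -0.06 and -0.01. At 48 h no member was called, again with 0% of all genes, and 1 member and 759 genes had an unadjusted p under 0.05. Pdk1 was at -2.38 and 0.47 at 1 mM against 1.13 and 0.59, the lowest difference (-1.82 ± 0.90), and the -2.38 came from the array with the profile of NIH3T3. Me2 had the highest value, 0.68 ± 0.59.

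Averaged over both lines and the 3 times, the difference between 1 and 25 mM called no member and 0% of all genes, with 4 members and 917 genes at an unadjusted p under 0.05. Member values ran from -0.47 ± 0.24 (Idh1) to 0.34 ± 0.22 (Pdk4), with a median of 0.01, beside 0.00 over all genes. The 4 kinases had a median of 0.05. Without the 6 arrays, over the 5 pairs of line and time that kept arrays at both glucose levels, the count was also 0.

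**Figure D5:**
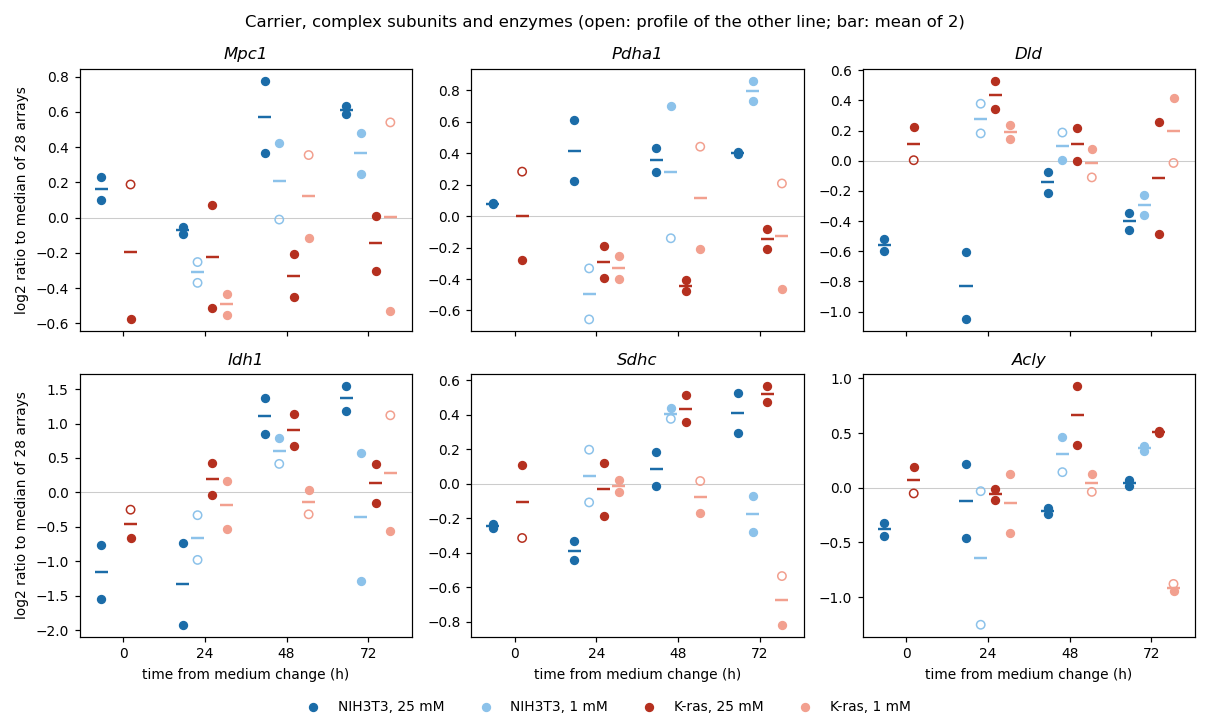
Log2 ratio to the median of 28 arrays for the pyruvate carrier gene Mpc1, the complex subunits Pdha1 and Dld, and the enzymes Idh1, Sdhc and Acly against time from the medium change, by line and glucose; points are arrays, bars the mean of 2, and open points the arrays with the profile of the other line. At 72 h Sdhc (-0.53 and -0.82) and Acly (-0.88 and -0.95) are lowest in K-ras at 1 mM, and Idh1 rises in NIH3T3 at 25 mM.

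Between the lines at 1 mM and 72 h no member was called, beside 0.253% of all genes, and 12 members and 2295 genes had an unadjusted p under 0.05. Pdk1 was at -0.01 and 1.15 in K-ras and -2.94 and -1.45 in NIH3T3, with no overlap and the highest difference, 2.77 ± 0.90 (adjusted p = 0.184). Acly had the lowest, -1.27 ± 0.31 (adjusted p = 0.0792). Without the 6 arrays, and with 1 K-ras array, 8 members were called, beside 8.09% of all genes. These were Sucla2 (3.03), Pdk1 (3.35) and Me1 (0.86), higher, and Ogdh (-1.65), Acly (-1.31), Pdha1 (-1.26), Sdha (-1.17) and Cs, lower. Leaving out only replicate 1 of K-ras also leaves 1 K-ras array, which read 2.80 for Sucla2, the highest value of that gene on any array. Sucla2 was called in that fit, and more of all genes were called there than with all arrays.

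Over all 18 comparisons, in the fit on all arrays, 15 members were called at least once and 20 never. The share of all genes called at least once was not computed, so these counts have no background to be judged against. Those never called included the 3 subunits of NAD-linked isocitrate dehydrogenase (Idh3a, Idh3b and Idh3g), both specific subunits of the oxoglutarate complex (Ogdh and Dlst), citrate synthase, fumarase and 3 of the 4 succinate dehydrogenase subunits (Sdha, Sdhb and Sdhd). Also never called were Suclg1 and Sucla2 of succinyl-CoA ligase, Pdhb and Pdhx of the pyruvate dehydrogenase complex, the phosphatase Pdp2, Pcx, Mdh1, the malic enzymes Me1 and Me2, and Acly. Both lists hold only for the fit on all arrays. Without the 6 arrays out of place, Sucla2, Acly and Fh1 were called in the line average. Idh3g and Pcx were then called over time in NIH3T3 at 25 mM. Other alternatives also called some members of these lists.

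Genes next to the pathway were read from a list of 28, of which 26 were measured. In the line average at 25 mM 1 was called, beside 11.3% of all genes. It was Glud1, the glutamate dehydrogenase that feeds oxoglutarate, lower in K-ras at -0.69 ± 0.16 (limma adjusted p = 0.0126). In NIH3T3, 1 rose from 0 to 72 h, the lactate dehydrogenase subunit Ldhb (2.08 ± 0.45), beside 5.52% of all genes called. From 24 to 72 h 4 rose, beside 6.15% of all genes called. The 4 were Ldhb (1.72 ± 0.45), the acetyl-CoA synthetase Acss2 (3.21 ± 0.81), the transhydrogenase Nnt (1.77 ± 0.48) and the oxoglutarate carrier Slc25a11 (1.04 ± 0.26). None of the 26 was called in the 15 other comparisons.

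Of 23 markers of fibroblasts, leukocytes, epithelium and endothelium, 5 were called in the line average, beside 11.3% of all genes. The median log2 fold change of the 23 was -0.03, and 10 of them were above 0. The fibroblast gene Pdgfra (1.57) and the leukocyte gene Cd68 (1.00) were higher in K-ras, and the epithelial genes Epcam (-0.34), Cdh1 (-1.03) and Krt14 (-5.13) were lower. The other fibroblast markers, among them Col1a1, Fn1, Vim and Thy1, and the epithelial markers Krt8 and Krt18 were not called. In NIH3T3, Pdgfra rose from 0 h (3.73) and from 24 h (3.16), and Pdgfrb from 24 h (3.22). The shares of all genes called were 5.52% from 0 h and 6.15% from 24 h. None was called in the other comparisons. The values carry no absolute level, so presence or absence of a cell type cannot be read, and the part of these genes in the member results was not tested. In such bulk samples fewer cells of a type and less RNA per cell cannot be told apart.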

How the data were processed

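Total RNA of 28 cultures was labelled with biotin and hybridised to Affymetrix arrays, per the labels' protocols. RMA appears in the submitters' processing notes without a version. The authors deposited log2 values for 45101 probe sets. Tested on the file, the median of 2 to the power of the value over the 28 arrays was 1, within 0.001, in all 45101. The table thus holds log2 ratios to each probe set's own median, with no level and unknown signal over background, which limits precision at low signal. Excluded were 932 probe sets of more than 1 symbol, 9160 unnamed here and 64 controls. The members and gene lists were chosen with earlier results of these data known.

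One coefficient per group was fitted on all 28 arrays with limma 3.58.1 in R 4.3.3 (lmFit, eBayes, 14 residual degrees of freedom), with Benjamini-Hochberg adjustment over 18193 genes and a threshold of 0.05. Errors are SEs of log2 fold changes. The fit was tested on simulated data. Named are called members and, for each comparison, those with the largest rise and fall, with values by array for called members and for Pdk1 to Pdk4. Alternatives were a further quantile normalisation, the mean of all probe sets, genes with an SD at or above the median, a fit on the compared arrays alone, the replicate number as a block, and leaving out the 6 arrays or each array in turn. The version of the glucose average without the 6 arrays was chosen after seeing the data. Promoter windows came from RefSeq (GRCm38.p6). Figures were drawn with matplotlib 3.10.9.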

Additional observations from a re-analysis of the deposited data

Results flagged for a closer look

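In 9 of 105 pairs of member and time, both arrays at 1 mM lay on one side of both at 25 mM in NIH3T3 and on the other side in K-ras (8.57%, beside 6.94% over all genes and times). Whether the glucose effect differed between the lines was not tested for these. Values are log2 differences of 1 minus 25 mM, NIH3T3 first. At 24 h they were 1.11 and -0.25 for Dld and 0.56 and -0.21 for Sdhd. At 48 h they were 0.42 and -0.43 for Pdk3, 0.74 and -0.84 for Sucla2, 0.32 and -0.51 for Sdhc, and 0.52 and -0.62 for Acly. At 72 h they were 0.44 and -0.73 for Idh2, -0.04 and 0.65 for Me1, and 0.32 and -1.43 for Acly. Each pair includes at least 1 array with the profile of the other line.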

How the results depend on the processing

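No member called in a comparison changed direction under any alternative run for it. Other probe sets taken alone were not among these alternatives, and some gave the opposite sign. These were Dld between the lines at 24 h (-0.40), Idh2 in the line average (-0.02) and 1 of Aco1 from 24 to 72 h in NIH3T3 (-0.26). Over the alternatives other than leaving out 1 array, 115 values of called members stayed past the threshold and 22 did not; without 1 array, 119 did and 93 did not. Counts of members called that moved by over 1.5 times were as follows, and the causes were not tested. Between the lines at 25 mM and 24 h (1 member) the count was 0 with a further quantile normalisation, the mean of all probe sets, genes with an SD at or above the median or the replicate block, 4 on the compared arrays alone and 6 without the 6 arrays out of place. At 0 h (0) it was 1, and at 48 h (0) 3, without the 6 arrays. At 72 h (0) it was 1 with the SD filter or the compared arrays alone and 3 without the 6 arrays. In NIH3T3 from 0 to 72 h (5) it was 3 with quantile normalisation, 12 on the compared arrays alone and 8 without the 6 arrays; from 24 to 72 h (6) it was 2, 10 and 9. The test of the time course between lines (0) gave 1 on the compared arrays alone, Pdk1. For glucose in K-ras at 72 h (1) it was 0 with quantile normalisation, the SD filter or the compared arrays alone, and 6 without the 6 arrays. Between lines at 1 mM and 72 h (0) it was 8 without the 6 arrays. In the line average (10) the count ran from 8 to 14. The shares of all genes called without the 6 arrays are given above with each comparison. Those for the other alternatives are not given here, so these counts do not describe the members alone.

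Without 1 array in turn, counts ran from 4 to 10 in the line average, 0 to 0 in NIH3T3 from 0 to 72 h, 0 to 2 from 24 to 72 h, 0 to 1 between lines at 24 h, 0 to 2 between lines at 72 h, 0 to 2 in K-ras from 24 to 72 h, 0 to 5 for the time course between lines, 0 to 3 for glucose in K-ras at 72 h and 0 to 1 between lines at 1 mM and 72 h. The number of all genes called also moved between these fits, so the ranges do not describe the members alone. With the replicate block the line average called 9, the NIH3T3 time comparisons 5 and 6, and glucose in K-ras at 72 h 1. The labels give only replicate numbers. Deviations of arrays with the same number correlated at a median r of -0.04 (-0.68 to 0.69) over 91 pairs of groups, with 23 over 0.1. Some of these groups hold arrays out of place, and whether arrays of the same number were processed together was not tested. Glucose in NIH3T3 at 24 h could not be fitted without the 6 arrays, since no array at 1 mM remains.

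The groups have 2 arrays each, and signal over background is unknown. Values near background cannot be recognised, and small differences between groups were not detectable at this number of arrays.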
